A study of Mus musculus with 9 samples.

Results

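The genes described here were 10 genes of the epithelial-mesenchymal transition (EMT), the change in which cells leave an epithelial sheet and become migratory. They were Cdh1, Cdh2, Epcam, Cldn6, Vim, Fn1, Snai1, Snai2, Zeb1 and Zeb2. They were taken by symbol from a table of 24736 genes, and all 10 were found and tested in each comparison. RNA was sequenced from 9 cultures of mouse embryonic stem cells differentiated to CEpiLCs (caudal epiblast-like cells), which model in a dish the progenitors of the trunk. WT cells were compared with a Cdx1/2/4 triple mutant (CdxKO) and a T/Bra mutant (T/BraKO), with 3 biological replicates each. The comparison asked how the loss of these transcription factors alters the transcriptional profile of caudal progenitors. All groups were grown for 2 days with bFGF at 10 ng per ml and LGK974 at 5 uM, which keeps cells from secreting WNT ligands. The WNT agonist CHIR99021, which inhibits GSK3, was then added until collection on day 3 (72 h). According to the study's methods all lines derived from the XY HM1 TetON stem cell line, the WT control. How many clones stood for each mutant was not given in the sources used here. The stem cells had been kept on mouse embryonic fibroblast feeders, which were removed by letting them adhere to plastic before differentiation.

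EMT takes place in the primitive streak, where epiblast cells leave the epithelium to form mesoderm. The transcription factors SNAI1, SNAI2, ZEB1 and ZEB2 bind E-boxes and are known as repressors of epithelial genes such as Cdh1, which encodes the adhesion protein E-cadherin. During the transition E-cadherin gives way to N-cadherin, encoded by Cdh2, and cells make more of the intermediate filament protein vimentin and the matrix protein fibronectin. T is a T-box factor that mesoderm formation in the streak requires, and CDX factors are required for posterior growth.

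Library depth ranged from 25124337 to 34705355 expected counts, and the ribosomal RNA gene Rn45s took 0.343% to 4.21% of them, with the highest share of each genotype in replicate 1. T had 10900 to 14760 normalised counts in WT and 1777 to 2894 in T/BraKO. Cdx4 had 59.97 to 161 in WT and 1.25 to 1.88 in CdxKO, and Cdx1 and Cdx2 were also lower in every CdxKO library than in any WT library. The Y-linked gene Ddx3y, chosen after its values were seen, had no count in any CdxKO library, with 1664 to 1769 normalised counts in WT and 2117 to 2754 in T/BraKO. Differences of the CdxKO line beyond the Cdx mutations and those of the genotype cannot be told apart. The summed level of 9 epiblast and caudal epiblast markers, which include the mutated genes T and Cdx2 and among which Pou5f1 was the most abundant in each genotype, was 1948 to 2465 TPM in WT, 1612 to 2493 in CdxKO, with 2125 to 2671 in T/BraKO. The summed level of 12 endoderm markers was 16.8 to 22.0 TPM in WT, 16.5 to 29.8 in CdxKO, with 10.6 to 17.6 in T/BraKO, with Hnf4a and Ttr at 0 in most libraries. DESeq2 called 2 of the 9 epiblast markers in CdxKO against WT (Cdx2 and Wnt8a, both lower), beside 0.693% of all genes in either direction. In T/BraKO against WT it called 2 (T lower and Sp5 higher, 1.08% of all genes), and between the mutants 5 (3.48%). A fit that pairs the libraries by number (the block) called 4, 5 and 7, beside 5.31%, 9.68% and 14.6% of all genes. Those in T/BraKO against WT were Pou5f1, Nkx1-2, Cdx2 and Sp5, higher, and T, lower. Of the endoderm markers, DESeq2 without the block called 0 of 10 tested in CdxKO and 0 of 12 in T/BraKO against WT (2 and 0 at an unadjusted p under 0.05). It called Foxa1 and Cubn higher in CdxKO than in T/BraKO, 2 of 10 tested, beside 2.52% of all genes. With the block Foxa2 was also called, lower in T/BraKO than in either other genotype. This made 1 of 5 tested against WT and 3 of 9 between the mutants, beside 9.68% and 14.6% of all genes in either direction. TPM is a length-scaled share of transcripts, and a normalised count is a count divided by the DESeq2 size factor of its library.

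Promoter sequence was read for 5 of the 10 genes (Vim, Zeb2, Snai1, Cldn6 and Epcam) from the RefSeq promoter table of GRCm38.p6. That table held no window for Cdh1, Fn1 or Snai2, and the remaining members were left out of the search by choice. Windows of 250 bases before each transcription start were searched on both strands for CAGGTG, an E-box form that SNAI and ZEB factors bind, for AGGTGT, a T-box motif, and for TTTATNG, a CDX motif. The E-box was present in 17.2% of 32851 windows of this length, the T-box motif in 11.8% and the CDX motif in 9.81%. The windows of Snai1 and Epcam are shown because they held matches, which are in capitals. Snai1 lay at chr2:167537945-167538194 on the plus strand and held 1 E-box, on the minus strand, beginning 126 bases before the start. Epcam lay at chr17:87635729-87635978 on the plus strand. It held E-boxes beginning 187 and 19 bases before the start, a CDX match at 29 bases, and a T-box match at 18 bases that overlaps the second E-box. Cldn6 held 1 E-box, 93 bases before its RefSeq start, shown with its flanks at chr17:23679260-23679289 on the plus strand, inside the first exon of the GENCODE transcript. No match lay in the window of Vim or in the 4 windows of Zeb2. The Vim window, at chr2:13574061-13574310, lay inside the GENCODE gene, so the bases before the GENCODE start of Vim were not searched. The Zeb2 windows also lay inside the GENCODE gene, except that at chr2:45117443-45117692. A match says only that these letters were present.
Snai1: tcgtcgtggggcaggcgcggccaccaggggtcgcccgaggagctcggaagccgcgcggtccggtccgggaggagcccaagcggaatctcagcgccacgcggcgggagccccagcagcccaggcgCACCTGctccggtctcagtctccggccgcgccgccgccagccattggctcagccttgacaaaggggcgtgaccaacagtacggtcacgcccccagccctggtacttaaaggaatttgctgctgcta
Epcam: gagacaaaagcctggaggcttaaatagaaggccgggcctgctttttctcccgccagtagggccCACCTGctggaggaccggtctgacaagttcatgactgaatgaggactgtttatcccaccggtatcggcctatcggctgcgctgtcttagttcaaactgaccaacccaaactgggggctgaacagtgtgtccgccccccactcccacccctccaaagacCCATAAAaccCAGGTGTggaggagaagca
Cldn6: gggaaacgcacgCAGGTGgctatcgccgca

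All 10 genes were transcribed in every library, and epithelial and mesenchymal members were present together. On the TPM scale, which allows genes to be set side by side, Vim was the most abundant in WT at 729 ± 95.4 TPM (mean ± SD, n = 3). Cdh1 followed at 280 ± 46.2 TPM, Epcam at 172 ± 32.8, Fn1 at 128 ± 44.4, Cdh2 at 90.7 ± 27.5 and Cldn6 at 82.9 ± 18.7. The libraries of Epcam and Fn1, of Fn1 and Cdh2, and of Cdh2 and Cldn6 overlapped, so the order of these neighbours was not separated by the spread. The 4 transcription factors were far less abundant. Zeb2 had 13.1 ± 2.62 TPM and overlapped Snai1 at 11.9 ± 0.215, whereas Zeb1 at 8.25 ± 1.84 and Snai2 at 2.75 ± 0.303 each lay apart from the gene above. In all 3 genotypes Vim, Cdh1 and Epcam held the first 3 places, with no overlap between Vim and Cdh1 or between Cdh1 and Epcam. Snai2 was last in all 3 genotypes. Cldn6 stood above Cdh2 in both mutants and below it in WT, and their libraries overlapped in all 3 genotypes. In CdxKO the mean of Snai1, 14.2 ± 3.45 TPM, was above that of Zeb2, 11.4 ± 2.34, with overlapping libraries.

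**Figure D1:**
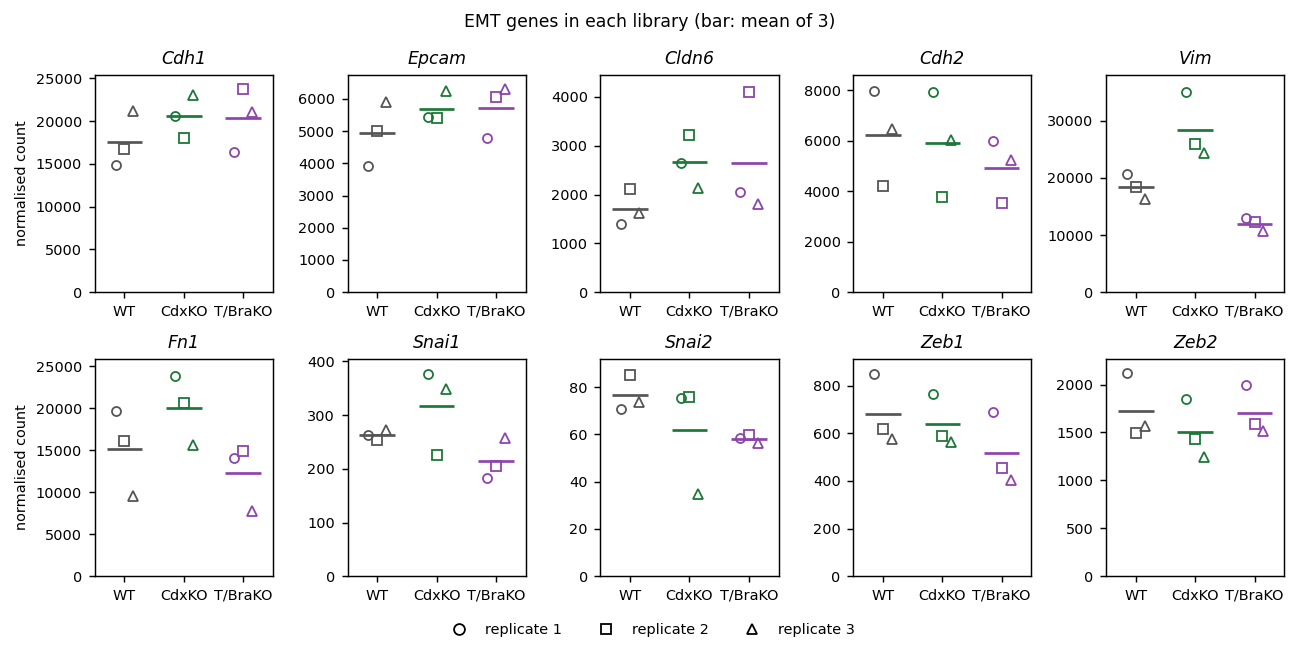
Normalised count (vertical axis, from 0) of each EMT gene in WT, CdxKO and T/BraKO, with a symbol for each of the 3 libraries and a bar at the mean. The groups of Vim do not overlap, with WT between 16229 and 20603, CdxKO above and T/BraKO below.

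Vim was the member that differed between genotypes in every comparison. By DESeq2 without a term for the replicate number, 1 of the 10 genes was called higher in CdxKO than in WT, beside 0.335% of all genes tested, and 0 were called lower (0.358% of all genes). Against WT, T/BraKO had 0 members higher (0.148% of all genes) and 1 lower (0.937%). Between the mutants 1 member was higher in CdxKO (2.52%) and 0 were lower (0.962%). Each of these calls was Vim, and the comparisons of the mutants with WT share the WT libraries. At an unadjusted p under 0.05, DESeq2 gave 2, 2 and 3 members in these comparisons. The share of all genes at that level was not counted, so such counts, here and for the lists, cannot be judged against it. Groups that did not overlap were found for 2 members in each comparison, Vim and Cldn6 in CdxKO against WT, Vim and Snai2 in T/BraKO against WT, and Vim and Fn1 between the mutants. Among all genes tested, 9.83%, 9.24% and 15.1% had groups that did not overlap.

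Libraries with the same replicate number deviated from their group means together, so each comparison was also fitted with the replicate number as a block. With the block, DESeq2 called 3 members higher in CdxKO than in WT (Vim, Fn1 and Cldn6, beside 3.4% of all genes) and 0 lower (1.91%). In T/BraKO against WT it called Epcam higher (4.83% of all genes) and Vim, Cdh2 and Zeb1 lower (4.85%). Between the mutants, Vim, Fn1, Cdh2, Snai1 and Zeb1 were higher in CdxKO (7.75%) and 0 members were lower (6.9%). The edgeR quasi-likelihood test with the block called 3, 4 and 5 members in the same order of comparisons, beside 4.61%, 9.37% and 18.5% of all genes in either direction. It differed from DESeq2 with the block in T/BraKO against WT, where it called Cldn6 higher and did not call Epcam. In bulk RNA, fewer cells expressing a gene and less of its RNA per cell cannot be told apart.

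**Figure D2:**
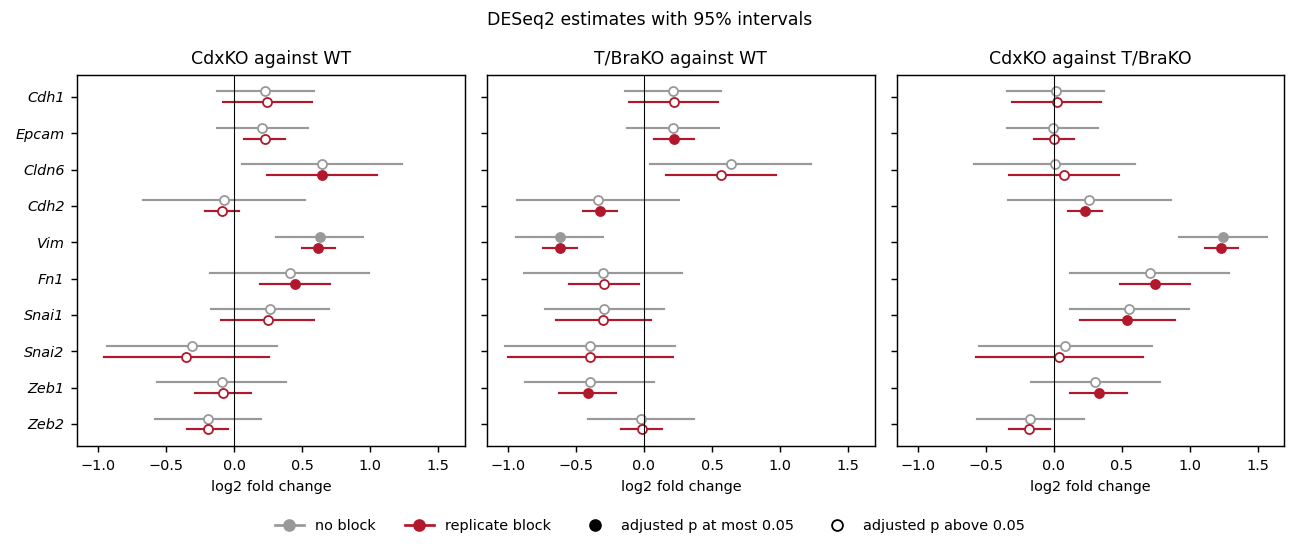
Log2 fold change (horizontal axis) of each EMT gene by DESeq2 in the 3 comparisons, without the block (grey) and with the replicate block (red), as points with 95% intervals, filled where the adjusted p was at most 0.05. Vim is filled in all 6 fits, at 0.63 (CdxKO) and -0.62 (T/BraKO) against WT without the block, and the block shortens most intervals.

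Vim (chr2:13573927-13582826, plus strand) encodes vimentin. It had 20603, 18469 and 16229 normalised counts in WT replicates 1, 2 and 3, and 35045, 25945 and 24378 in CdxKO. In T/BraKO it had 13067, 12244 and 10698. All CdxKO libraries were above, and all T/BraKO libraries below, every WT library. The mean was 54.4% higher in CdxKO than in WT, at a log2 difference of 0.63 (SE 0.16, adjusted p 0.0256 by DESeq2, 2.89e-20 with the block). In T/BraKO the mean was lower, at -0.62 on the log2 scale (SE 0.16, adjusted p 0.0183, 3.89e-20 with the block). The mutants differed by 1.25 (SE 0.16, adjusted p 1.1e-11, 3.13e-83 with the block). Without the block, the call against WT in CdxKO was lost without WT replicate 2, WT replicate 3 or CdxKO replicate 1 (adjusted p 0.134, 0.254 and 0.276 by DESeq2). That in T/BraKO was lost without WT replicate 1, WT replicate 2, T/BraKO replicate 2 or T/BraKO replicate 3 (adjusted p 0.313, 0.109, 0.0622 and 0.183). With the block, all 3 calls held whichever of the 9 libraries was left out. The edgeR test without the block called Vim between the mutants (adjusted p 0.00533) and not against WT (0.381 in CdxKO, 0.203 in T/BraKO).

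Within each replicate number the shift of Vim was of similar size. The log2 ratio of CdxKO to the WT library of the same number, with 1 added to each normalised count here and for the other members, was 0.77, 0.49 and 0.59 for numbers 1, 2 and 3. The ratio of T/BraKO to WT was -0.66, -0.59 and -0.60. Number 1 had the highest Vim count of each genotype and number 3 the lowest.

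Fn1 (chr1:71585520-71653200, minus strand), which encodes fibronectin, had 19683, 16105 and 9616 normalised counts in WT and 23884, 20679 and 15595 in CdxKO. T/BraKO had 14103, 14933 and 7807. CdxKO and WT overlapped, as did T/BraKO and WT, whereas every CdxKO library was above every T/BraKO library. Number 3 was the lowest library of each genotype. The CdxKO to WT log2 ratio was 0.28, 0.36 and 0.70 within numbers 1, 2 and 3. Without the block Fn1 was not called in any comparison by DESeq2, with log2 fold changes of 0.41 in CdxKO against WT, -0.30 in T/BraKO against WT and 0.71 between the mutants (adjusted p 1, 1 and 0.259). With the block it was called in CdxKO against WT at 0.45 (SE 0.13, adjusted p 0.0179). The mutants differed by 0.74 with the block (SE 0.13, adjusted p 6e-07). In T/BraKO against WT it was -0.30 with the block (95% interval -0.55 to -0.04, adjusted p 0.151). Leaving out CdxKO replicate 2 or 3 gave a call in T/BraKO against WT with the block (adjusted p 0.00421 and 0.00102). The blocked call between the mutants held without any one library. That in CdxKO against WT was lost without WT replicate 2, WT replicate 3 or CdxKO replicate 1 (adjusted p 0.31, 0.241 and 0.145).

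Genes of fibroblasts, the cell type of the feeders, moved in part with Vim and Fn1. Of 10 feeder fibroblast markers, 9 were tested in CdxKO against WT and 0 were called by DESeq2, with 3 at an unadjusted p under 0.05. Among all genes 0.335% were called higher there and 0.358% lower. Relative to WT, T/BraKO had 10 tested, with Postn and Pdgfrb lower, beside 0.937% of all genes. Between the mutants Col1a1, Col1a2 and Postn were higher and Thy1 lower in CdxKO, 4 of 9 tested, beside 2.52% and 0.962% of all genes. With the block, Col1a1 and Col1a2 were higher and Thy1 lower in CdxKO than in WT, 3 of 8 tested, beside 3.4% and 1.91% of all genes. Col1a1, Col1a2, Postn and Pdgfrb were lower in T/BraKO than in WT with the block, 4 of 7, beside 4.85% of all genes. Between the mutants Pdgfrb joined the 4 with the block, 5 of 9 tested, beside 7.75% of all genes higher and 6.9% lower. The collagen gene Col1a1 had 626 to 1532 normalised counts in WT, 1377 to 2952 in CdxKO, with 353 to 729 in T/BraKO, and Postn, which encodes periostin, had 14.9 to 50.3, 29.2 to 151 and 4.48 to 5.52. Thy1 went the other way, with 417 to 520, 199 to 345 and 521 to 784. Dcn and Col6a3, both scarce, were also highest in T/BraKO on average, with overlap between all groups. Mean normalised counts in WT, CdxKO and T/BraKO were 29.8, 32.9 and 48.7 for Dcn and 20.1, 26.4 and 32.3 for Col6a3. Fap was at 0 in all but 1 library, and Lum was between 1.10 and 8.39. The list summed to 38.9 to 69.0 TPM in WT, 47.3 to 85.1 in CdxKO, with 36.6 to 58.2 in T/BraKO, with overlap between all groups. In normalised counts, the scale of the fits, the sum was 2122 to 4049 in WT, 3032 to 5729 in CdxKO, with 1718 to 2824 in T/BraKO, and all CdxKO libraries were above all T/BraKO libraries, as for Vim and Fn1. Vim alone ranged from 408 to 1378 TPM. The part of fibroblast RNA in the Vim and Fn1 results was not tested.

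**Figure D3:**
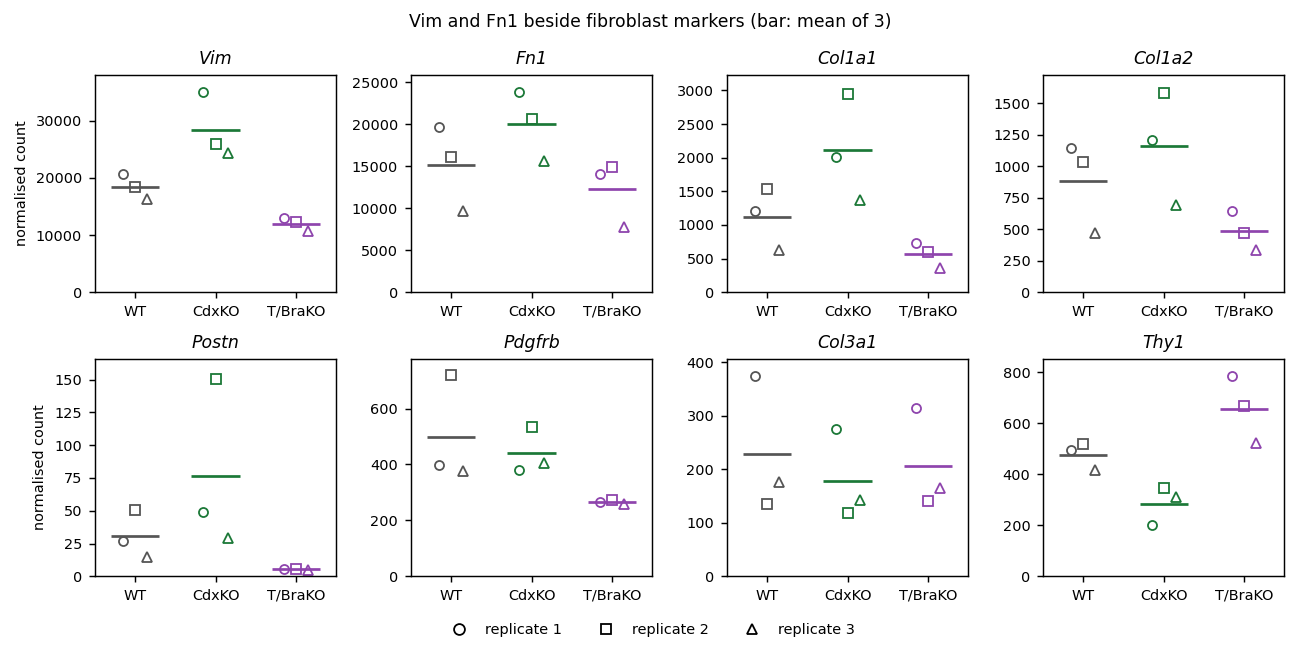
Normalised count (vertical axes, from 0) of Vim, Fn1 and 6 of the 10 fibroblast markers in the 3 libraries of each genotype, with a bar at the mean. Col1a1, Col1a2 and Postn are highest in CdxKO and lowest in T/BraKO on average, like Vim, while Thy1 is lowest in CdxKO and Col3a1 overlaps between all groups.

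Cdh2 (chr18:16588877-16809246, minus strand), the N-cadherin gene, had 7999, 4208 and 6489 normalised counts in WT and 7937, 3769 and 6033 in CdxKO. T/BraKO had 5991, 3538 and 5260. The groups overlapped in each comparison, since number 2 was the lowest and number 1 the highest of each genotype. Within numbers 1, 2 and 3 the T/BraKO to WT log2 ratio was -0.42, -0.25 and -0.30, lower in each. Without the block the log2 fold change was -0.34 (SE 0.31, adjusted p 1 by DESeq2). With the block it was -0.32 (SE 0.06, adjusted p 2.15e-05), a call that held whichever library was left out. In CdxKO against WT Cdh2 was -0.09 with the block (95% interval -0.21 to 0.03, adjusted p 0.586). Between the mutants Cdh2 was higher in CdxKO by 0.23 with the block (adjusted p 0.00343 by DESeq2), and this call was lost without CdxKO replicate 1 or T/BraKO replicate 1 (adjusted p 0.0984 and 0.0993).

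Paraxial mesoderm markers, whose cells arise by EMT from the caudal epiblast, also differed in T/BraKO. Msgn1, Tbx6 and Dll1 were lower in T/BraKO than in WT, 3 of 10 tested by DESeq2, beside 0.937% of all genes. Hes7 joined them with the block, 4 of 6 tested, beside 4.85% of all genes. Between the mutants Msgn1, Tbx6 and Dll1 were higher in CdxKO, 3 of 9 tested without the block (2.52% of all genes) and 3 of 8 with it (7.75%). The list summed to 54.3 to 92.2 TPM in WT, 32.6 to 105 in CdxKO, with 14.6 to 27.7 in T/BraKO. Msgn1, a mesodermal transcription factor gene, had 114 to 219 normalised counts in WT and 1.83 to 4.48 in T/BraKO. In CdxKO against WT 0 of 10 were called by DESeq2, and 0 were at an unadjusted p under 0.05. With the block 1 of 6 tested, Hes7, was called lower, beside 1.91% of all genes. The part of mesodermal cells in the T/BraKO results for Vim, Cdh2 and Zeb1 was not tested.

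Cdh1 (chr8:106603351-106670246, plus strand), the E-cadherin gene, was not called in any comparison, with or without the block. It had 14915, 16705 and 21118 normalised counts in WT, 20619, 18070 and 23098 in CdxKO, with 16345, 23779 and 21005 in T/BraKO. The groups overlapped throughout. Against WT the log2 fold change of CdxKO was 0.23 (SE 0.18, 95% interval -0.13 to 0.58, adjusted p 1 by DESeq2), and that of T/BraKO was 0.21 (95% interval -0.14 to 0.57). The mutants differed by 0.02 (95% interval -0.34 to 0.37). With the block and without T/BraKO replicate 2, Cdh1 was called in CdxKO against WT (0.24, adjusted p 0.00678 by DESeq2) and between the mutants (0.21, adjusted p 0.0452).

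Epcam (chr17:87635979-87651129, plus strand) encodes an epithelial cell adhesion molecule. It had 3907, 4997 and 5899 normalised counts in WT, 5440, 5401 and 6232 in CdxKO, with 4786, 6055 and 6312 in T/BraKO. Each mutant library was above the WT library of the same number, yet the groups overlapped. With the block the log2 fold change was 0.22 in both mutants against WT, with an adjusted p of 0.0575 in CdxKO and 0.0399 in T/BraKO by DESeq2. By edgeR with the block these were 0.13 and 0.101. The T/BraKO call was lost in 6 of the 9 fits that left out 1 library, those without WT replicate 1 or 2, CdxKO replicate 3 or any of the T/BraKO replicates (adjusted p 0.0745 to 0.539). In CdxKO, leaving out CdxKO replicate 2 or T/BraKO replicate 2 gave a call (adjusted p 0.0228 and 0.0416). The mutants differed by 0.00 with the block (95% interval -0.15 to 0.15).

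Cldn6 (chr17:23679249-23682446, plus strand) encodes claudin-6, a tight junction protein of early epithelia. It had 1388, 2108 and 1619 normalised counts in WT and 2638, 3223 and 2135 in CdxKO, with every CdxKO library above every WT library. T/BraKO had 2043, 4109 and 1809, the widest spread of the 3 groups, and overlapped WT. The mean was 56.3% higher in CdxKO than in WT and 55.6% higher in T/BraKO. Without the block the log2 fold changes were 0.64 and 0.64 (SE 0.30 each, adjusted p 0.838 and 0.825 by DESeq2). With the block CdxKO was called at 0.64 (SE 0.21, adjusted p 0.0369), whereas T/BraKO was at 0.57 (SE 0.21, adjusted p 0.0585 by DESeq2 and 0.0353 by edgeR). Between the mutants the blocked difference was 0.08 (95% interval -0.33 to 0.48), or 0.30 without T/BraKO replicate 2 (adjusted p 0.0396). The CdxKO call was lost without WT replicate 1 or 2, CdxKO replicate 1 or 3, or T/BraKO replicate 1 (adjusted p 0.0827 to 0.528). In T/BraKO, leaving out WT replicate 3, CdxKO replicate 1, T/BraKO replicate 2 or T/BraKO replicate 3 gave a call (adjusted p 0.0156 to 0.0489).

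The balance of E-cadherin and N-cadherin transcripts was compared as the ratio of Cdh1 to Cdh2 TPM within each library. Cdh1 exceeded Cdh2 in all 9 libraries. The ratio was 2.04, 4.34 and 3.56 in WT, 2.84, 5.25 and 4.19 in CdxKO, with 2.99, 7.35 and 4.37 in T/BraKO. Each mutant library had a higher ratio than the WT library of its number, and the groups overlapped. On the log2 scale the mean difference was 0.33 for CdxKO against WT (two-sided exact permutation p 0.6) and 0.53 for T/BraKO against WT (exact permutation p 0.4). It was -0.21 for CdxKO against T/BraKO (exact permutation p 0.7). Adjusted over the 3 comparisons each p was 0.7. Paired by number, the differences were 0.48, 0.27 and 0.23 in CdxKO and 0.55, 0.76 and 0.30 in T/BraKO, with an exact sign-flip p of 0.25 for each. With 3 libraries a group the smallest possible p was 0.1, and 0.25 for 3 pairs, so neither test could pass 0.05. Leaving out CdxKO replicate 1 or T/BraKO replicate 2 turned the difference between the mutants to 0.03 and 0.14.

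Among the transcription factors, Snai1 (chr2:167538195-167542814, plus strand), which encodes the repressor that acts early in streak EMT, had 262, 254 and 273 normalised counts in WT. CdxKO had 376, 226 and 348, and T/BraKO had 182, 205 and 257. Replicate 2 was the lowest of the CdxKO libraries and lay below all WT libraries, while the other two CdxKO libraries lay above them. In T/BraKO only replicate 3 reached the WT range. Against WT Snai1 was not called in either mutant, at 0.26 in CdxKO and -0.29 in T/BraKO (SE 0.22 each, adjusted p 1 by DESeq2). The mutants differed by 0.56 without the block (adjusted p 0.208) and by 0.54 with it (SE 0.18, adjusted p 0.02). The blocked call was lost without WT replicate 1, CdxKO replicate 1 or 3, or T/BraKO replicate 1 or 3 (adjusted p 0.0566 to 0.308). Without the block, leaving out CdxKO replicate 2 gave a call (0.75, adjusted p 0.00394).

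Zeb1 (chr18:5591860-5775467, plus strand) had 847, 617 and 574 normalised counts in WT, 762, 588 and 562 in CdxKO, with 691, 453 and 403 in T/BraKO. Number 1 was the highest library of each genotype, so the groups overlapped. Each T/BraKO library was below the WT and the CdxKO library of its number. The log2 fold change in T/BraKO against WT was -0.40 without the block (adjusted p 1 by DESeq2) and -0.41 with it (SE 0.11, adjusted p 0.00291), a call lost without WT replicate 2 or T/BraKO replicate 3 (adjusted p 0.0567 and 0.0933). Between the mutants it was 0.33 with the block (adjusted p 0.0194). This call was lost without CdxKO replicate 2 or 3, or T/BraKO replicate 2 or 3 (adjusted p 0.0975 to 0.207). In CdxKO against WT it was -0.08 with the block (95% interval -0.29 to 0.12).

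Zeb2 and Snai2 were not called in any comparison by DESeq2 or edgeR, with or without the block. Zeb2 (chr2:44983632-45117395, minus strand) had 2119, 1492 and 1567 normalised counts in WT, 1853, 1430 and 1243 in CdxKO, with 1997, 1584 and 1517 in T/BraKO. Each CdxKO library was below the WT library of its number, and the groups overlapped. With the block the CdxKO log2 fold change was -0.20 (95% interval -0.35 to -0.04, adjusted p 0.138) and that of T/BraKO -0.02 (95% interval -0.17 to 0.13). An antisense gene, Zeb2os, overlaps Zeb2 on the plus strand, and the counting used strand. GENCODE also places other genes over parts of Fn1, Zeb1 and Cdh2. Snai2 (chr16:14705852-14709385, plus strand) was the scarcest member, with 70.9, 85.1 and 73.7 normalised counts in WT, 75.2, 75.9 and 34.8 in CdxKO, with 58.5, 59.5 and 56.5 in T/BraKO. All T/BraKO libraries were below all WT libraries, at a log2 fold change of -0.40 (95% interval -1.02 to 0.23, adjusted p 1 by DESeq2). In CdxKO, replicate 3 alone was low, and the log2 ratio to WT, with 1 added to each count, was 0.08, -0.16 and -1.06 within numbers 1, 2 and 3.

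**Figure D4:**
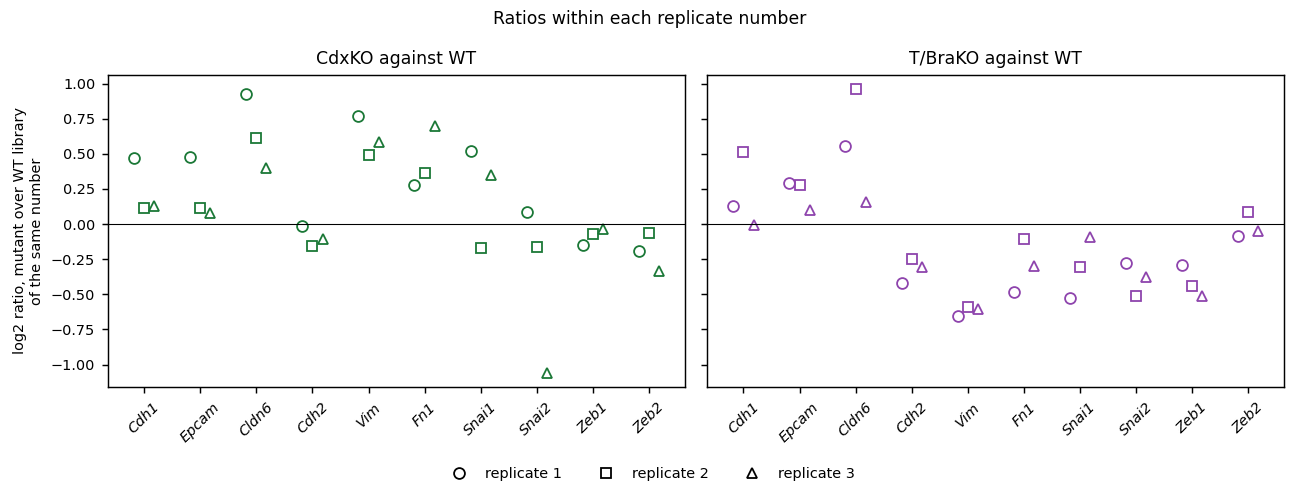
Log2 ratio (vertical axis) of each mutant library to the WT library of the same replicate number for the 10 EMT genes, with a symbol for each number and a line at no difference. In T/BraKO, all 3 symbols of Cdh2, Vim, Fn1, Snai1, Snai2 and Zeb1 lie below the line and those of Epcam and Cldn6 above it, and in CdxKO all 3 of Cdh1, Epcam, Cldn6, Vim and Fn1 lie above and those of Cdh2, Zeb1 and Zeb2 below.

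The median log2 fold change of the 10 members with the block was 0.23 in CdxKO against WT, beside 0.00 over all genes tested. For T/BraKO it was -0.30, beside 0.02, and between the mutants it was 0.16, beside -0.01. In CdxKO the epithelial members Cdh1, Epcam and Cldn6 and the mesenchymal members Vim and Fn1 all had positive estimates, as did Snai1, while Cdh2, Snai2, Zeb1 and Zeb2 had negative ones. In T/BraKO the 3 epithelial members had positive estimates and the other 7 members negative ones. Without the block, leaving out 1 library turned the sign of Cdh2 and Zeb1 in CdxKO and of Zeb2 in T/BraKO, none of which was called there.

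Other epithelial genes were described by a list of 37 genes for adhesion and polarity. Without the block 1 of 37 was called in CdxKO against WT, Jup, which encodes the junction protein plakoglobin. It rose from 2687 ± 55.6 to 3691 ± 147 normalised counts (mean ± SD, n = 3, log2 fold change 0.46, SE 0.09, adjusted p 7.55e-05 by DESeq2). With the block 5 of 36 tested were higher and 0 lower, beside 3.4% of all genes higher and 1.91% lower in that fit. These were Ap1m2, Cldn7, Jup, Llgl2 and Dsg2, with log2 fold changes from 0.31 to 0.60. By edgeR with the block Krt18 was called in place of Dsg2, 5 of 37 tested, beside 4.61% of all genes in either direction. In T/BraKO against WT 0 of 37 were called by DESeq2 without the block, with 1 at an unadjusted p under 0.05. With the block 2 of 36 were lower, a count near the 4.85% of all genes called lower there. These were the keratin gene Krt19 (-1.41, adjusted p 6.07e-05) and the desmosomal cadherin gene Dsc2 (-0.41, adjusted p 2.04e-04 by DESeq2). Between the mutants Jup was higher in CdxKO without the block (0.44, adjusted p 2.91e-05), and 8 of 37 were higher and 0 lower with it, beside 7.75% and 6.9% of all genes. The edgeR test without the block kept the call of Jup between the mutants and called 0 of 36 in either mutant against WT, with 2 and 1 at an unadjusted p under 0.05. That test called 1.63% of all genes between the mutants, and 0.11% in CdxKO and 0.385% in T/BraKO against WT. The genes called with the block were led by Krt19 (2.17), Cldn4 (1.19), Krt8 (1.02) and Krt18 (1.01). Krt19 varied widely, at 2274 ± 1484 normalised counts in WT, 3497 ± 1600 in CdxKO, with 963 ± 869 in T/BraKO. The blocked median of the list was 0.21 in CdxKO against WT, 0.05 in T/BraKO against WT and 0.14 between the mutants.

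A list of 24 genes for mesenchymal adhesion, cytoskeleton and matrix held 0 calls in CdxKO against WT by DESeq2 or edgeR without the block. These fits called 0.693% and 0.11% of all genes. At an unadjusted p under 0.05 they gave 9 and 8 genes of the list, and the share of all genes there was not counted. With the block 9 of 23 tested were higher (3.4% of all genes) and 1, Vcan, lower (1.91%), and the largest increases were in Tnc (log2 fold change 1.02), which encodes the matrix glycoprotein tenascin C, Has2 (0.56), Itga5 (0.51), Acta2 (0.50) and Sparc (0.47). In T/BraKO against WT the matrix protease gene Mmp2, at 2670 ± 297 normalised counts in WT, fell to 1839 ± 227 (log2 fold change -0.54, SE 0.13, adjusted p 0.00466 by DESeq2), the 1 call. With the block 7 of 23 were lower, led by Pdgfra (-0.79), Cdh6 (-0.79), Tnc (-0.74) and Loxl2 (-0.64), and 1, Has2, was higher, beside 4.85% and 4.83% of all genes. By edgeR with the block 6 of 24 were lower and 0 higher, without Acta2 and Has2, beside 9.37% of all genes in either direction. Between the mutants Tnc (1.73), Loxl2 (1.09) and Sparc (0.62) were higher in CdxKO without the block, and 11 of 24 were higher and 1, Cdh4, lower with it, beside 7.75% and 6.9% of all genes. Of the calls without the block, edgeR gave that of Tnc and not those of Mmp2, Loxl2 and Sparc. Tnc had 492 ± 184 normalised counts in WT, 969 ± 233 in CdxKO, with 291 ± 97.7 in T/BraKO. The blocked medians were 0.21, -0.10 and 0.30 in the same order of comparisons. Fibroblasts also express several of these matrix genes. Among the fibroblast markers given beside Vim, Col1a1, Col1a2 and Postn were highest in CdxKO and lowest in T/BraKO on average. Thy1 went the other way, Dcn and Col6a3 were highest in T/BraKO on average with overlap between all groups, and Col3a1 overlapped between all groups. The part of fibroblast RNA in the results of this list was not tested.

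Of 26 further EMT regulators, Klf4 was the 1 called in CdxKO against WT, rising from 110 ± 3.72 to 169 ± 14.6 normalised counts (log2 fold change 0.62, SE 0.16, adjusted p 0.0267 by DESeq2). With the block Klf4, the ligand gene Tgfb2 (0.49) and the receptor gene Tgfbr2 (0.43) were higher, 3 of 24 tested, and 0 lower, beside 3.4% and 1.91% of all genes. By edgeR with the block Klf4 and Tgfbr2 were called and Tgfb2 was not, 2 of 24, beside 4.61% of all genes in either direction. In T/BraKO against WT 0 of 26 were called by DESeq2 without the block, with 3 at an unadjusted p under 0.05. With it, Eomes, a T-box gene of the streak, was higher (1.26, adjusted p 2.81e-11), as was Grhl2 (0.36), a gene of epithelial identity. Tgfb2 (-1.001, adjusted p 1.52e-08) and Grhl3 (-0.69) were lower, 4 of 22 in all, beside 4.83% of all genes higher and 4.85% lower. Between the mutants Tgfb2 was higher in CdxKO without the block (1.49, SE 0.43, adjusted p 0.0176 by DESeq2). With the block 5 of 24 were higher and 2, Eomes and Crb2, lower in CdxKO, beside 7.75% and 6.9% of all genes. The edgeR test without the block called 0 of 24 regulators in each comparison, with 2, 3 and 3 at an unadjusted p under 0.05, so that the calls of Klf4 and Tgfb2 without the block were lost. In that test 0.11%, 0.385% and 1.63% of all genes were called. Tgfb2 had 582 ± 264 normalised counts in WT, 796 ± 293 in CdxKO, with 284 ± 136 in T/BraKO. The blocked medians of the list were 0.06, 0.05 and 0.07.

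**Figure D5:**
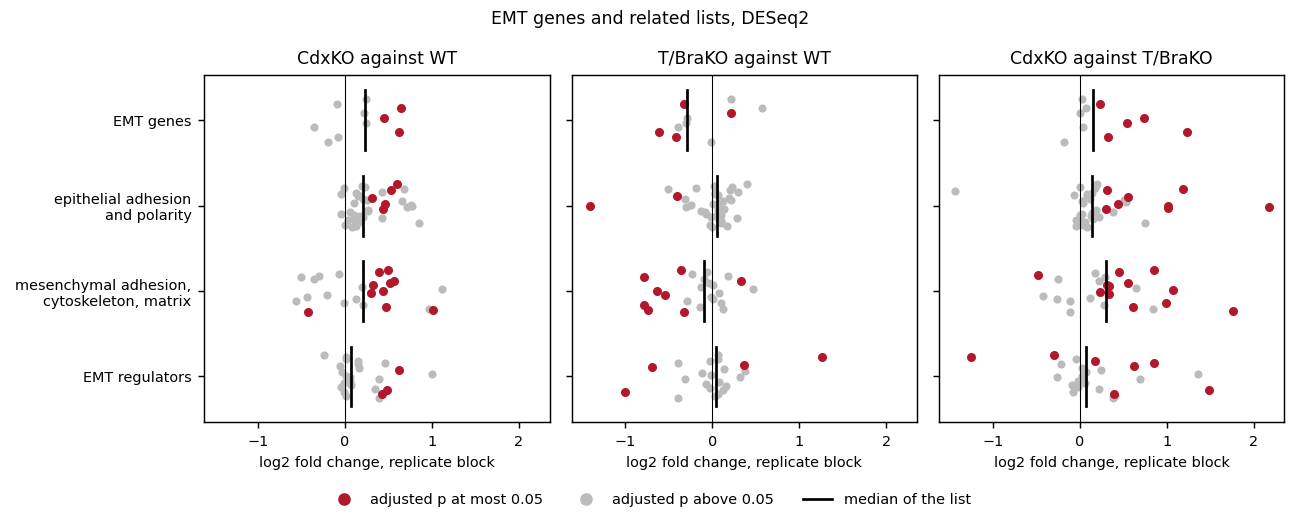
Log2 fold change by DESeq2 with the replicate block (horizontal axis) of each tested gene of the EMT genes and of the related lists, with a black bar at the median of each list, and red where the adjusted p was at most 0.05. In the mesenchymal list 9 genes are red to the right for CdxKO and 7 to the left for T/BraKO, each against WT.

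The members also varied with the replicate number, in the same direction in each genotype for several of them. The mean deviation from the group mean was 0.41 on the log2 scale for Cdh2 in number 1 and -0.52 in number 2, and -0.51 for Fn1 in number 3. Zeb1 and Zeb2 were above their group means in number 1 by 0.36 and 0.29 on average. Across the 9 libraries, which share these numbers, Cdh1 and Epcam had the most alike levels of the members, with a Pearson r of 0.92 on log2 normalised counts, with 1 added. Vim and Fn1 had an r of 0.79, Fn1 and Zeb1 0.70, and Vim and Snai1 0.68. The most negative were Epcam with Zeb1 (-0.82) and with Zeb2 (-0.75), Cdh2 with Cldn6 (-0.69) and Cdh1 with Zeb1 (-0.67). Beyond the members, among about 11400 genes averaging at least 100 normalised counts, Cdh1 was most like F11r (r 0.97), which encodes a tight junction adhesion molecule. Epcam was most like Cbx7 (0.98), Cdh2 like Terf2ip (0.98) and Vim like Actr2 (0.98), an actin-related gene. Fn1 was most like Fndc3a (0.97), Snai1 like Snx10 (0.95), Zeb1 like Grip1 (0.98), Zeb2 like Stox2 (0.97), Cldn6 like Dapk3 (0.96) and Snai2 like Zbtb24 (0.93). These are descriptions over 9 libraries of 3 genotypes and 3 numbers.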

How the data were processed

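Poly(A) RNA from the 9 cultures was made by the authors into libraries with the KAPA mRNA HyperPrep kit and read from 1 end, keeping strand. Per the submitters' processing notes and the methods, reads were trimmed with cutadapt 1.16 and quantified with STAR 2.5.2a and RSEM 1.3.0 against RefSeq genes of mm10. The authors deposited expected counts, which are estimated counts per gene and need not be whole, and TPM, scaled per library by transcript length. In each library 3.75% to 4.00% of the 24736 genes, those without a count included, had an expected count that was not whole.

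Expected counts were rounded and analysed in R 4.3.3 with the Wald test of DESeq2 1.42.0, as the methods name DESeq2 (their version, 1.16.1, was older). Genotype was the only term, all 9 libraries were fitted, log2 fold changes were not shrunk, and a call was an adjusted p (Benjamini-Hochberg, over all genes tested) of at most 0.05. The SE and 95% intervals are those of the fit for 1 gene. Alternatives were the replicate block, edgeR 4.0.16 with and without it, TMM size factors, a filter of 10 counts in 3 libraries, the 6 libraries compared and leaving out each library. Leaving out each library with the block was added after seeing the data. P-values measure the spread among these replicates, and those with the block only the spread left after the replicate numbers are fitted.

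Replicate numbers came from the titles. Deviations from group means over 12316 genes correlated at 0.532 to 0.814 in the 9 pairs of same-numbered libraries and at -0.690 to 0.134 in the 18 others, so the numbers were taken to pair the libraries. No pair of libraries of the same genotype agreed within sampling noise, and pairs of different genotypes were not checked in this way. Totals put a floor of 3 counts at 0.0864 to 0.119 CPM, which covers counting error only.

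The members and lists were chosen with earlier results of these data known. Named beside the members are T and the Cdx genes and, from each related list and comparison, at most 5 called genes with the largest absolute log2 fold change and a mean of at least 50 normalised counts in the higher group, and those most like each member. One gene of the mesenchymal list is not reported here and was left out of its counts. Marker genes and genes given with counts of calls are named from their lists. Coordinates are from GENCODE M21 on GRCm38, the assembly of mm10. The statistics were tested on simulated counts that held no effect of the replicate number.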

Additional observations from a re-analysis of the deposited data

Results flagged for a closer look

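The effects of the 2 mutations relative to WT were compared directly, as the difference of CdxKO and T/BraKO, and 5 of 10 members differed with the replicate block, beside 7.75% of all genes higher in CdxKO and 6.9% lower. Without the block, DESeq2 and edgeR called Vim alone, beside 3.48% and 1.63% of all genes in either direction. Vim differed by 1.25 on the log2 scale. With the replicate block the differences were 0.74 for Fn1, 0.54 for Snai1, 0.33 for Zeb1 and 0.23 for Cdh2, each higher in CdxKO. The edgeR test with the block called the same 5 genes, beside 18.5% of all genes. The blocked calls of Vim and Fn1 held without any one library, while those of Snai1, Zeb1 and Cdh2 were each lost without some single libraries, with Snai1 at an adjusted p of 0.308 by DESeq2 without CdxKO replicate 1. Single libraries were not tested as outliers, since the groups have 3 libraries each.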

How the results depend on the processing

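The replicate block moved the number of members called from 1 to 3 in CdxKO against WT, from 1 to 4 in T/BraKO against WT and from 1 to 5 between the mutants, and edgeR with the block gave the same 3 numbers. Over all genes tested, calls in either direction rose with the block from 0.693% to 5.31%, from 1.08% to 9.68% and from 3.48% to 14.6%. Related genes called moved from 2 to 18, from 1 to 14 and from 5 to 27 with the block, and to 18, 12 and 28 by edgeR with the block. The block, which pairs the libraries by number, ended no call of a member and changed no other call of a member than those given in the report. The edgeR test without the block called 0, 0 and 1 members (1, 1 and 3 at an unadjusted p under 0.05) and 0, 0 and 2 related genes. Over all genes it called 0.11%, 0.385% and 1.63% in either direction. Leaving out each library without the block gave 0 to 1, 0 to 1 and 1 to 2 members, 1 to 2, 0 to 4 and 3 to 15 related genes (15 without T/BraKO replicate 2), and for the Cdh1 to Cdh2 level, differences between the mutants of -0.51 to 0.14. A fit to the 6 libraries of CdxKO and WT called 1 related gene. TMM size factors, the filter and the fits to 6 libraries kept each member's direction and its side of the threshold. For the members called with all 9 libraries, with or without the block, no direction turned under these alternatives, except that of Cdh2 between the mutants, which was 0.26 without the block and -0.01 without CdxKO replicate 1. With 3 libraries a group, small differences of Snai2, the scarcest member, were limited by depth and spread.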
